A study of Pleuronichthys verticalis with 38 samples.

Results

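The 200 least variable liver transcripts of hornyhead turbot (Pleuronichthys verticalis, a flatfish) were taken from 5372 candidate probes of a custom array with 14757 non-control probes. A probe was a candidate when the scanner software called its signal well above background on all 38 arrays, which 5572 probes were, and when it was not among the 200 with the highest mean level. The level of a probe was its log2 signal minus the log2 of the array's 75th percentile, so that a level of 0 lies at that percentile and 1 log2 unit is a 2-fold step. The members are the 200 candidates chosen by the lowest standard deviation (SD) of this level over all fish. Since these measured values selected them, their small spread is how they were found, and the spreads and group differences given for them below are descriptions.

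Each array carried liver RNA of 1 fish, in 1 colour. Fish of the 4 exposure groups had received, in peanut oil, a single intraperitoneal injection of flame retardants, the polybrominated diphenyl ethers (PBDEs), or of former electrical fluids, the polychlorinated biphenyls (PCBs). The low PBDE group (7 fish) received 0.5 µg per g of body weight and the high PBDE group (6 fish) 5 µg per g of a mixture of the congeners BDE 47, 99 and 100. The low PCB group (5 fish) received 1 µg per g and the high PCB group (7 fish) 10 µg per g of a mixture of 13 congeners, namely PCB 49, 52, 66, 87 and 99, PCB 101, 105, 118, 138, 149 and 153, and PCB 170 and 180. The oil control (6 fish) was injected with peanut oil alone, at 2 mL per kg, and the seawater control (7 fish) was not injected. Livers were taken after 96 h. The fish were 10 females, 26 males and 2 immature fish, with 4 females among the 5 low PCB fish and 0 among the 6 high PBDE fish.

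Transcripts whose measured level hardly varies between individuals are often taken as reference transcripts, to put other transcripts on a common scale. Whether the members would serve as such was not tested. In vertebrate tissue, genes for the ribosome, the proteasome, RNA processing and energy metabolism are often used in this way, since every cell needs their products. PBDEs and PCBs are persistent halogenated pollutants that accumulate in fatty tissue and liver, and some PCB congeners act through the aryl hydrocarbon receptor, which turns on detoxifying enzymes.

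The files name each probe by a contig number of the array's design, with no gene name or sequence, so the members are given by probe name, and neither their genes nor the labelled tissue could be set against markers. The 200 members stood for 200 distinct contigs. Each had 1 spot on the array, and 0 of these spots were saturated or marked as an outlier on any array.

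Members had SDs between 0.146 and 0.237 log2 units over the 38 fish, with a median of 0.219, and the other 5172 candidates had a median of 0.463 and a highest SD of 2.96. As a fold, 1 SD was 1.16-fold for the median member and 1.38-fold for the median of the other candidates. The distance between the highest and the lowest fish was at the median 1.93-fold for members, from 1.55-fold to 2.95-fold, and 4.11-fold for the other candidates. In 133 of 200 members, and in 62 of the other candidates, it stayed under 1 log2 unit. Of 7600 single values of members, 158 (2.08%) lay more than 0.5 log2 units from the mean of their probe and 1 lay more than 1 unit from it, while 29.6% of the values of other candidates lay more than 0.5 units away.

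The members ran without a gap into the rest of the candidates. The last 3 members were HT_SCCWRP_12847 (SD 0.23657), HT_SCCWRP_4032 (0.23683) and HT_SCCWRP_2420 (0.236846), and the first 3 candidates beyond them were HT_SCCWRP_1457 (0.236912), HT_SCCWRP_6006 (0.23777) and HT_SCCWRP_3326 (0.237998). Within 0.01 log2 units of the highest member SD there were 55 members below it and 72 candidates above it.

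**Figure D1:**
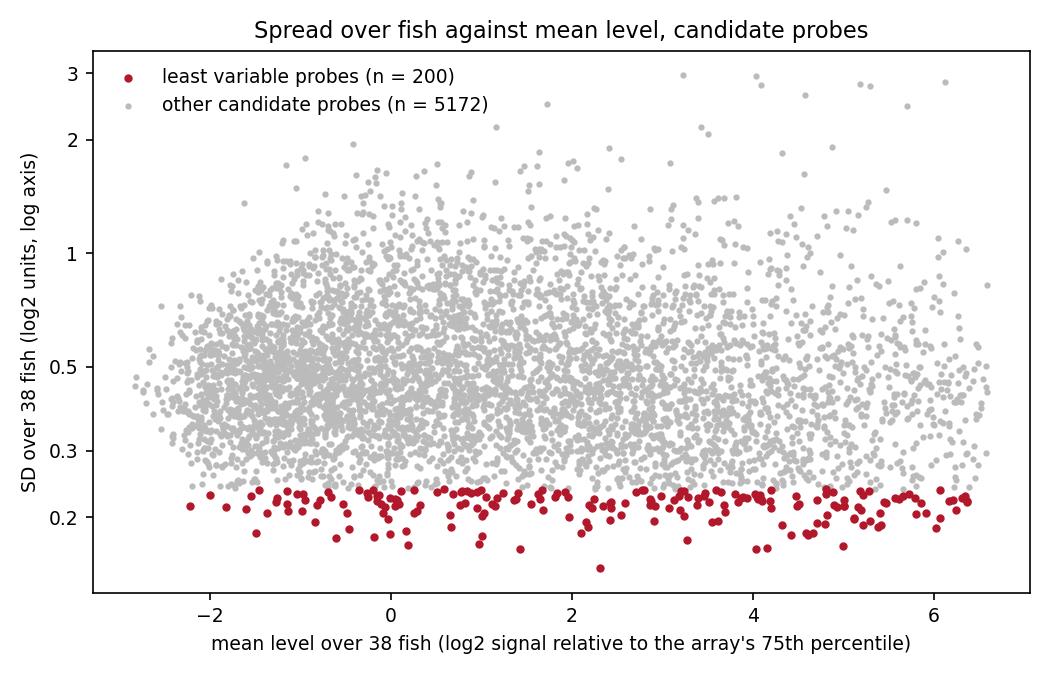
Each point is 1 candidate probe, with its mean level over 38 fish on the horizontal axis (log2 signal above the 75th percentile of the array) and its SD over fish on the vertical axis (log2 units, log axis). The 200 least variable probes (red) form the lower edge of the cloud, at SDs of 0.146 to 0.237, along nearly its whole width, with no gap to the other 5172 candidates (grey).

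The members had signals of every brightness, with more of them among bright probes. Their mean level had a median of 2.49 and ran between -2.22 and 6.37, against a median of 0.83 for the other candidates. When the candidates were divided into 10 classes of equal size by mean level, the members numbered, from the dimmest class to the brightest, 5, 11, 10, 21, 14, 19, 16, 24, 29 and 51. The brightest class thus had 9.48% members and the dimmest class 0.929%. Probe brightness depends on the probe as well as on the transcript, so this order is not an order of transcript amounts. By position, 47.5% of members and 50.9% of all candidates lay in the first 96 rows of the array. In its first 41 columns lay 47.0% of members and 49.6% of all candidates. Smaller regions of the array were not looked at.

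HT_SCCWRP_6811 had the lowest SD of all candidates (0.146). Its level, as lowest, median and highest fish, was 2.26, 2.35 and 2.41 in low PBDE fish and 2.12, 2.22 and 2.43 in high PBDE fish. In low PCB fish it was 2.08, 2.29, 2.31, 2.35 and 2.50, and in high PCB fish 2.01, 2.29 and 2.70. It was 1.94, 2.24 and 2.38 in oil control fish and 2.36, 2.41 and 2.46 in seawater control fish. The 7 low PBDE and the 7 seawater fish lay close together, with SDs of 0.05 and 0.04, whereas the 7 high PCB fish had an SD of 0.23, and the ranges of all 6 groups overlapped. Even in the least variable probe, the lowest fish was an oil control and the highest a high PCB fish, 0.76 log2 units apart (1.69-fold). Between fish on the same array slide, oil lay below seawater on 5 of 5 slides, low PBDE on 6 of 6 and high PBDE on 5 of 5. Low PCB lay below seawater on 3 of 4 slides and high PCB on 3 of 5. These comparisons share the seawater fish, and signs alone do not give sizes. The low PBDE differences ran between -0.18 and -0.01 log2 units, with a median of -0.03. With slide as a block, oil minus seawater was -0.18 ± 0.10 (SE, limma, Benjamini-Hochberg adjusted p = 0.799). In the same limma fit, low PBDE minus seawater was -0.06 ± 0.09 (adjusted p = 0.940) and high PBDE minus seawater -0.14 ± 0.10 (0.761). Low PCB minus seawater was -0.09 ± 0.10 (limma adjusted p = 0.832) and high PCB minus seawater -0.07 ± 0.09 (0.858).

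HT_SCCWRP_99, the next by SD (0.165), had other fish at its edges. It was 1.34, 1.43 and 1.66 in low PBDE fish, 1.07, 1.35 and 1.48 in high PBDE fish, 1.40, 1.49, 1.51, 1.58 and 1.65 in low PCB fish and 1.17, 1.52 and 1.84 in high PCB fish, against 1.26, 1.38 and 1.71 in oil and 1.06, 1.39 and 1.59 in seawater fish. Here the low PCB fish were the tightest group (SD 0.09), the high PCB fish again the widest (0.22), and all 6 ranges overlapped.

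HT_SCCWRP_10784 (SD 0.165) was a brighter member, with means between 3.95 ± 0.21 in low PCB fish and 4.12 ± 0.21 in low PBDE fish (SD, n = 5 and 7). For this probe the high PCB fish were the tightest group, at 3.88, 4.02 and 4.17 with an SD of 0.12. Which group was tight and which was wide thus differed from probe to probe among the 3 least variable members. The other 7 of the 10 lowest SDs, between 0.165 and 0.177, belonged to HT_SCCWRP_6417, HT_SCCWRP_1923, HT_SCCWRP_24188, HT_SCCWRP_17865, HT_SCCWRP_1725, HT_SCCWRP_12502 and HT_SCCWRP_4977, whose mean levels ran between -0.60 and 4.99.

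The brightest member, HT_SCCWRP_6216, had a mean level of 6.37 and an SD of 0.221, and the dimmest, HT_SCCWRP_4640, a mean level of -2.22 and an SD of 0.214. HT_SCCWRP_6216 averaged 6.40 ± 0.16 in low PBDE, 6.32 ± 0.19 in high PBDE, 6.39 ± 0.17 in low PCB and 6.29 ± 0.30 in high PCB fish, against 6.46 ± 0.22 in oil and 6.36 ± 0.28 in seawater fish (SD, n = 7, 6, 5, 7, 6 and 7). HT_SCCWRP_4640 averaged -2.14 ± 0.22, -2.29 ± 0.10, -2.24 ± 0.22 and -2.27 ± 0.20 in the exposure groups, in the same order, against -2.26 ± 0.35 in oil and -2.14 ± 0.15 in seawater fish. Since no member has an SD above 0.237, their similar spreads at opposite ends of the brightness range follow from the choice of members.

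For every member, the mean levels of the 6 groups lay at most 0.43 log2 units apart. The choice by a low SD over these same fish limits this distance, so it is a description. The distance between the highest and the lowest group mean had a median of 0.21 log2 units over members, from 0.07 to 0.43, and of 0.50 over the other candidates. The RNA is that of whole liver pieces, so fewer cells of a type and less RNA per cell cannot be told apart in any of these levels. Group took a median of 12.3% of the sum of squares of members and 14.3% of that of the other candidates, where its degrees of freedom alone would take 13.5%. These are shares of each probe's own total, which the choice made small for members, so they do not compare the size of group differences. Within groups, the median SD of members was 0.20 in low PBDE, 0.17 in high PBDE and 0.23 in low PCB fish. It was 0.23 in high PCB, 0.20 in oil and 0.17 in seawater fish. The other candidates had 0.43, 0.37, 0.46, 0.46, 0.43 and 0.40 in the same order, so the wider and tighter groups were not particular to members.

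HT_SCCWRP_1278 had the widest range of group means among members (0.43). It was -1.41, -1.03 and -0.71 in low PBDE fish and -1.16, -1.10 and -0.81 in high PBDE fish, as lowest, median and highest. It was -1.52, -1.29, -1.28, -1.17 and -1.17 in low PCB fish and -1.04, -0.93 and -0.58 in high PCB fish, against -1.69, -0.97 and -0.85 in oil and -1.21, -0.99 and -0.81 in seawater fish. The low PCB fish all lay below the high PCB fish, a pair of groups not compared by a test here. Both overlapped the oil fish, the low PCB fish only through oil fish 20, at -1.69, with the next lowest oil fish at -1.01. In the limma fit the probe differed between low PCB and oil by -0.30 ± 0.16 (SE, adjusted p = 0.707, Benjamini-Hochberg over all probes) and between high PCB and oil by 0.13 ± 0.14 (adjusted p = 0.853). With slide as a block these limma differences were -0.35 ± 0.16 (adjusted p = 0.614) and 0.05 ± 0.14 (0.968), and within slides low PCB lay below oil on 5 of 5 slides that held both.

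HT_SCCWRP_11493 (range 0.38) was 3.95, 4.18 and 4.28 in low PBDE fish and 3.82, 4.31 and 4.42 in high PBDE fish. It was 4.21, 4.31, 4.34, 4.37 and 4.46 in low PCB fish and 4.06, 4.22 and 4.57 in high PCB fish, against 3.74, 3.91 and 4.36 in oil and 3.89, 4.23 and 4.88 in seawater fish. Of the 6 oil fish, 5 lay below every low PCB and every high PCB fish, while the seawater fish covered the range of both. The limma differences were 0.44 ± 0.17 for low PCB minus oil (SE, adjusted p = 0.561) and 0.32 ± 0.14 for high PCB minus oil (adjusted p = 0.644), against 0.16 ± 0.15 (0.874) and 0.03 ± 0.13 (0.981) for the same groups minus seawater. With slide as a block, low PCB minus oil was 0.41 ± 0.16 (limma adjusted p = 0.608) and high PCB minus oil 0.27 ± 0.15 (0.747), and within slides they were above 0 on 4 of 5 and on 5 of 5 slides.

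HT_SCCWRP_6641 (range 0.38) was highest in low PBDE fish, at 1.11, 1.26 and 1.50, and lowest in low PCB fish, at 0.61, 0.76, 0.94, 1.02 and 1.12. High PBDE fish had 0.82, 1.12 and 1.31 and high PCB fish 0.80, 1.18 and 1.48, against 0.91, 0.95 and 1.30 in oil and 0.78, 1.12 and 1.57 in seawater fish. The low PBDE and low PCB fish overlapped in a single value at each edge. The low PBDE fish overlapped the oil fish only through oil fish 20, at 1.30, with the next highest oil fish at 1.02. By limma, low PBDE minus oil was 0.28 ± 0.13 (SE, adjusted p = 0.998) and low PCB minus seawater was -0.34 ± 0.15 (adjusted p = 0.488). With slide as a block they were 0.38 ± 0.12 (limma adjusted p = 0.852) and -0.41 ± 0.13 (0.243), and within slides the first was above 0 on 5 of 6 and the other below 0 on 4 of 4 slides.

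**Figure D2:**
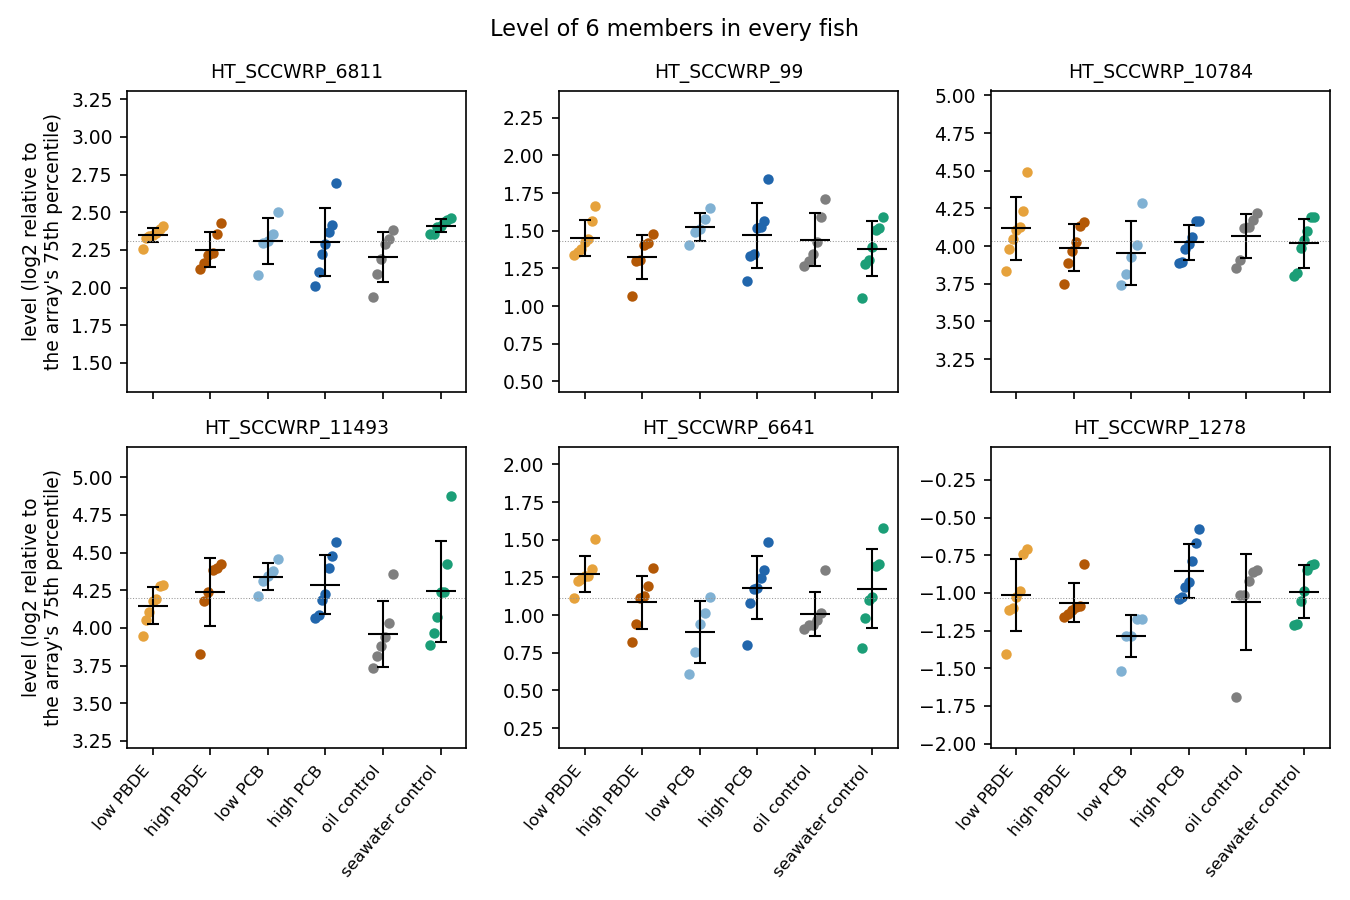
Points are single fish, bars the group mean ± SD (n = 5 to 7 fish), and the dotted line the mean over all 38 fish; the vertical axis is the level (log2 units above the 75th percentile of the array) and spans the same 2 units in every panel. The upper row has the 3 members with the lowest SD (0.146 to 0.165) and the lower row the 3 with the widest range of group means (0.38 to 0.43). In the lower row, low PCB fish (HT_SCCWRP_11493, HT_SCCWRP_1278) or low PBDE fish (HT_SCCWRP_6641) overlap the oil control only through a single oil fish.

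In the limma fit over 10492 probes, with group and sex as terms, 0 of 200 members passed an adjusted p of 0.05 in any of the comparisons between groups or sexes, and the background was at or near 0 as well. Against oil, the share of all probes that passed was 0% for low PBDE, 0% for high PBDE, 0% for low PCB and 0.00953% for high PCB. For oil against seawater it was 0%. Against seawater it was 0.0477% for low PBDE, 0% for high PBDE, 0.0858% for low PCB and 0.0762% for high PCB, and it was 0% for female against male and 0.0381% for any difference among the 6 groups. Because the members were chosen for a low SD over these same fish, nothing is read from the members' count.

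At an unadjusted p under 0.05, the exposure groups against oil gave 3 members for low PBDE (4.40% of all probes), 3 for high PBDE (4.81%), 4 for low PCB (7.51%) and 7 for high PCB (7.41%), and oil against seawater gave 4 (7.23%). Against seawater the counts were 2 for low PBDE (6.80%), 13 for high PBDE (8.18%), 3 for low PCB (8.32%) and 7 for high PCB (9.05%). Female against male gave 4 (5.67%) and any difference among the 6 groups 0 (7.73%). The exposure groups share the same oil and seawater fish, so these counts are not independent of each other.

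With slide as a block in the limma fit, 0 of 200 members again passed an adjusted p of 0.05 in each of these comparisons. The background at that threshold was 0.0286% of all probes for low PBDE, 0.124% for low PCB and 0.0572% for high PCB against seawater, 0.00953% for any difference among the 6 groups and 0% for the others. At an unadjusted p under 0.05, both the member counts and the shares of all probes against seawater were higher with the block than without it. The counts were 12 for low PBDE (8.29% of all probes), 24 for high PBDE (8.85%), 9 for low PCB (11.1%) and 20 for high PCB (11.4%). Against oil they were 3 for low PBDE (5.12%), 6 for high PBDE (5.83%), 6 for low PCB (7.39%) and 6 for high PCB (6.97%), and oil against seawater gave 7 (6.59%). Female against male gave 4 (5.27%) and any difference among the 6 groups 5 (9.36%). Since the members were chosen for a low SD over these same fish, nothing is read from their counts with or without the block.

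The precision of a member's difference is described by its interval. The SE behind it draws on the member's own spread and on that of other probes of similar level (eBayes with an intensity trend). Members were chosen for a low SD over these same fish, so the intervals are descriptions. The median half-width of the 95% interval for members lay between 0.22 log2 units (female minus male) and 0.34 (low PCB minus oil). The median absolute difference of members was 0.08 log2 units for low PBDE minus oil, 0.08 for high PBDE minus oil, 0.10 for low PCB minus oil and 0.09 for high PCB minus oil, beside 0.20, 0.21, 0.27 and 0.24 over all probes tested. The members with the smallest p, higher and lower, were HT_SCCWRP_6641 (0.28) and HT_SCCWRP_12502 (-0.30) for low PBDE minus oil, HT_SCCWRP_72900 (0.34) and HT_SCCWRP_6760 (-0.32) for high PBDE minus oil, HT_SCCWRP_11493 (0.44) and HT_SCCWRP_11126 (-0.37) for low PCB minus oil, and HT_SCCWRP_11493 (0.32) and HT_SCCWRP_4310 (-0.31) for high PCB minus oil.

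Injection together with peanut oil was compared with no injection as oil against seawater. There HT_SCCWRP_6273 (0.36) and HT_SCCWRP_1929 (-0.30) had the smallest p in each direction. With slide as a block they were 0.38 ± 0.12 (SE, limma adjusted p = 0.470) and -0.31 ± 0.12 (0.616). Within slides the first was above 0 on 4 of 5 slides and the other below 0 on 5 of 5. HT_SCCWRP_6273 was 4.63, 4.70 and 5.09 in low PBDE fish, 4.82, 4.89 and 5.20 in high PBDE fish, 4.49, 4.71, 4.72, 5.00 and 5.05 in low PCB fish and 4.58, 4.82 and 5.24 in high PCB fish. It was 4.45, 4.93 and 5.15 in oil and 4.12, 4.62 and 4.83 in seawater fish. Seawater fish had the lowest mean of the 6 groups, 4.57 ± 0.23 (SD, n = 7), and their range overlapped that of each injected group. By limma, high PBDE minus seawater was 0.41 ± 0.14 (SE, adjusted p = 0.387) and high PCB minus seawater 0.30 ± 0.13 (adjusted p = 0.456). With slide as a block they were 0.41 ± 0.12 (limma adjusted p = 0.349) and 0.21 ± 0.12 (0.516), and both were above 0 on 5 of 5 slides.

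HT_SCCWRP_6060 ran the other way. It was 0.07, 0.29 and 0.44 in low PBDE fish, -0.03, 0.21 and 0.31 in high PBDE fish, 0.00, 0.13, 0.35, 0.50 and 0.58 in low PCB fish and -0.03, 0.17 and 0.49 in high PCB fish, against 0.01, 0.27 and 0.64 in oil and 0.29, 0.45 and 0.95 in seawater fish. Seawater fish had the highest mean, 0.50 ± 0.22 (SD, n = 7), and 1 of the 6 high PBDE fish reached into their range. Its limma difference was -0.38 ± 0.14 for high PBDE minus seawater (SE, adjusted p = 0.432) and -0.31 ± 0.13 for high PCB minus seawater (adjusted p = 0.435). With slide as a block they were -0.32 ± 0.14 (limma adjusted p = 0.520) and -0.29 ± 0.13 (0.386), and they were below 0 on 5 of 5 and on 4 of 5 slides. For low PBDE minus seawater the smallest p belonged to HT_SCCWRP_6342 (0.33) and HT_SCCWRP_2056 (-0.26), and for low PCB minus seawater to HT_SCCWRP_5031 (0.33) and HT_SCCWRP_6641 (-0.34).

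Between females and males, members differed by a median of 0.06 log2 units in size, and all probes by 0.17. The members with the smallest p were HT_SCCWRP_4310, higher in females by 0.22 (limma adjusted p = 0.823), and HT_SCCWRP_4129, at -0.23 (adjusted p = 0.829). With slide as a block these differences were smaller, at 0.12 ± 0.09 (SE, limma adjusted p = 0.960) and -0.15 ± 0.11 (0.954). Sex took a median of 3.60% of the sum of squares of members and 4.44% of that of other candidates, where its degrees of freedom would take 5.41%. As for group, these shares do not compare the size of sex differences between members and other candidates.

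Whether a small spread carries over to fish that did not choose the list can be read from lists made in one set of fish and measured in another. The 200 candidates with the lowest SD in the 25 exposed fish had a median SD of 0.23 in the 13 control fish, against 0.44 for the other candidates there, and 194 of the 200 lay below the candidates' median. The 200 chosen in the 13 control fish had a median SD of 0.26 in the exposed fish, against 0.46 for the others, with 199 of 200 below the median. Lists chosen in the 10 females and measured in the 26 males had a median SD of 0.26 against 0.45 for the others (195 of 200 below the median), and lists chosen in males and measured in females 0.24 against 0.45 (200 of 200). In the fish that chose them, the lists had lower median SDs, of 0.21 (exposed), 0.18 (control), 0.17 (female) and 0.21 (male), than where they were measured. Part of their low spread was thus particular to the choosing fish. In the other fish the lists still had lower median SDs than other candidates, while the identity of the 200 carried over less. These lists are not the 200 members, which all 38 fish chose. The exposed and control lists shared 60 probes and the female and male lists shared 54. Both sets of fish shared slides and scaling, and the lists were not matched in brightness to the other candidates. The part of such fixed properties of probes in the carried-over spread was not tested. The candidate filter used all 38 arrays in each case.

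On every array the members lay closer to their means than other candidates did. Their choice by a low SD over these same arrays favours this, so it is a description. The median distance of a member from its own mean ran between 0.099 and 0.234 log2 units over the 38 arrays, and that of other candidates between 0.250 and 0.413; the distance of other candidates was 1.60 to 2.57 times that of members, with a median of 2.18. By group, the lowest, median and highest array had member distances of 0.124, 0.132 and 0.193 in low PBDE, 0.099, 0.115 and 0.140 in high PBDE and 0.131, 0.150 and 0.222 in high PCB fish. The 5 low PCB arrays had 0.124, 0.136, 0.152, 0.214 and 0.234, against 0.120, 0.134 and 0.161 in oil and 0.099, 0.138 and 0.151 in seawater fish.

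The arrays that stood out for the members included the brightest and the dimmest of the series. Low PCB fish 33 had the highest member distance (0.234) and the highest 75th percentile of signal, 194 intensity units, and high PCB fish 32 had a distance of 0.222 and the lowest 75th percentile, 43.6 units, and was the 1 array of slide 8. Low PCB fish 29 (0.214) was of middling brightness, at 124 units. The next dimmest array, of low PCB fish 2 (59.4 units), had a distance of 0.136. The next brightest, of low PBDE fish 12 (184 units), had 0.193. Members more than 0.5 log2 units from their mean numbered 21 on the array of high PCB fish 32, 17 on that of oil fish 20 and 15 on that of high PCB fish 41, and at most 10 on any other array. The part of array brightness in these distances was not tested.

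**Figure D3:**
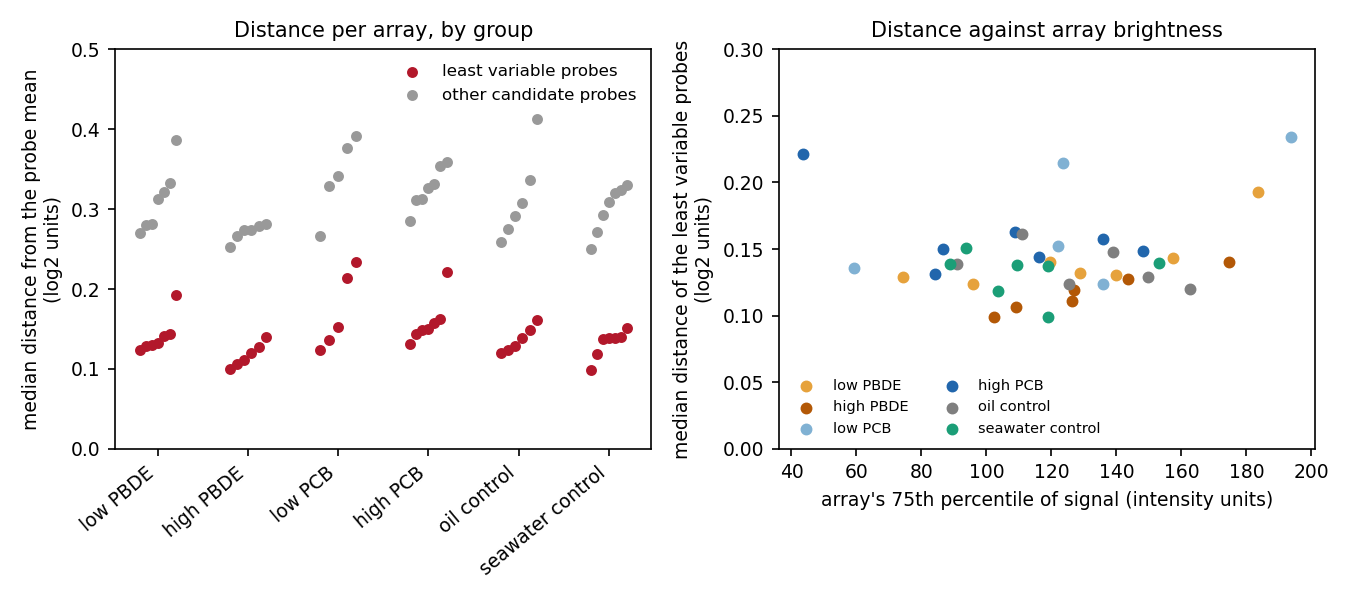
Each point is 1 array, that is 1 fish. The left panel has the median distance of probes from their own mean (log2 units) for the least variable probes (red, 0.099 to 0.234) and for the other candidates (grey, 0.250 to 0.413) by group, and the right panel sets the distance of the least variable probes against the array's 75th percentile of signal (intensity units), where the dimmest array (43.6) and the brightest (194) have the highest distances, 0.222 and 0.234.

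The distance between brighter and dimmer members moved with the slide on some slides. The series came from 8 slides, with 1 to 6 of these arrays on each, and most slides held fish of several groups. By the file headers, slides 1 and 2 were scanned on 1 day, slides 3 to 6 on another day, and slides 7 and 8 on yet another. Differences between these sets of slides can therefore not be told apart from differences between scan days. The mean deviation of the brighter members, those above the median level, minus that of the dimmer members was above 0 on all 5 arrays of slide 1, by 0.09 to 0.28 log2 units, and on all 5 of slide 2, by 0.02 to 0.08. It was below 0 on all 5 arrays of slide 6, at -0.23 to -0.05, and on all 4 of slide 5, at -0.09 to -0.02. It had both signs on the other slides with several arrays, being above 0 on 1 of 6 arrays of slide 3, 3 of 6 of slide 4 and 1 of 6 of slide 7. These are differences between the brighter and dimmer members: both sets deviated the same way on 1 of 5 arrays of slide 1, 3 of 4 of slide 5 and 3 of 5 of slide 6. Slide took a median of 35.8% of the sum of squares of members and 24.9% of that of other candidates. Its degrees of freedom would take 18.9%. Scan day, which is part of slide, took medians of 12.1% and 7.99%, where its degrees of freedom would take 5.41%. These are shares of each probe's own total, which the choice made small for members. They therefore do not compare the size of slide differences between members and other candidates. The residual SD of members after slide had a median of 0.19.

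Of 200 members, 11 passed an adjusted p of 0.05 for any difference among slides (limma F test, Benjamini-Hochberg), beside a background of 9.90% of all probes, and 56 had an unadjusted p under 0.05, beside 27.6%. The smallest p belonged to HT_SCCWRP_1519 (adjusted p = 0.00925), named after its values were seen, whose 5 arrays on slide 1 had levels of 2.94 to 3.45, against 2.49 to 2.80 on the 5 arrays of slide 6. Those ranges did not overlap, and the mean of slide 1 was 3.19. HT_SCCWRP_15370, also chosen after its values were seen, had 6.02 to 6.23 on slide 1 and 5.33 to 5.75 on slide 6 (adjusted p = 0.0142), again without overlap. The count fell to 2 without low PCB fish 33, which was on slide 1. It was 6 without seawater fish 24, low PBDE fish 12 or 51, or high PCB fish 25 or 40, and 7 without seawater fish 35, 46, 6 or 7, oil fish 47, 49 or 8, low PBDE fish 19, 38 or 48, high PBDE fish 26 or high PCB fish 32. With all fish it was 1 under quantile normalization, 53 with each array's median as the scale and 0 after normexp.

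Most pairs of members were weakly correlated over the fish. Over the 19900 pairs of members, Pearson's r over the 38 fish had a median of 0.07, against 0.00 for pairs of other candidates, and 33 pairs had an r over 0.7. The highest was that of HT_SCCWRP_179 with HT_SCCWRP_12537 (r = 0.84, n = 38), followed by HT_SCCWRP_8406 with HT_SCCWRP_8581 (r = 0.81), and the lowest that of HT_SCCWRP_4746 with HT_SCCWRP_63392 (r = -0.66). Paired probes share array, slide and scaling: slide took 62.4% of the sum of squares of HT_SCCWRP_179 and 53.9% of that of HT_SCCWRP_12537. The first principal component held 17.6% of the members' variation and 11.4% of that of other candidates, and its mean was -1.99 over the 5 arrays of slide 1, against 1.19 on slide 5 and 1.14 on slide 6.

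Control probes on the same arrays were set beside the members. Of 10 E1A probes, which detect RNA that Agilent supplies to be added before labelling, 7 were well above background in all spots. On the scale used for the members they had SDs of 0.30 to 0.32, more than any member, yet they moved together: with the array's common shift removed, their SDs were 0.03 to 0.06. That shift ran between -0.69 on the array of low PBDE fish 12 and 0.69 on that of high PCB fish 32. With the members' own common shift removed in the same way, their median SD was 0.208. Each E1A value was averaged over the spots of its probe, whereas a member had 1 spot. The E1A spreads are therefore not a floor for those of the members.

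Probes spotted 10 times on each array gave the spread between spots. The 16 of them among the candidates had SDs of 0.05 to 0.40 log2 units between spots of an array, with a median of 0.06, and SDs of 0.25 to 1.03 over fish, with a median of 0.35. The SD over fish is that of the average of the 10 spots, whereas the SD between spots is that of single spots, so they are unlike measures. In HT_SCCWRP_REP_55812, named after its values were seen, the SD between spots was 0.380 and that over fish 0.302. Of the 16 repeated probes, 0 were members, and the closest, HT_SCCWRP_REP_11064, ranked 324 by SD. The error that the scanner software gives for a member's signal had a median of 10.0% of the signal, or 0.144 log2 units. It hardly differed between probes, with an upper quartile of 10.1% for members and a median of 0.145 log2 units for other candidates. While 0 members had an SD below this error, that is not a comparison with a spread measured probe by probe.

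**Figure D4:**
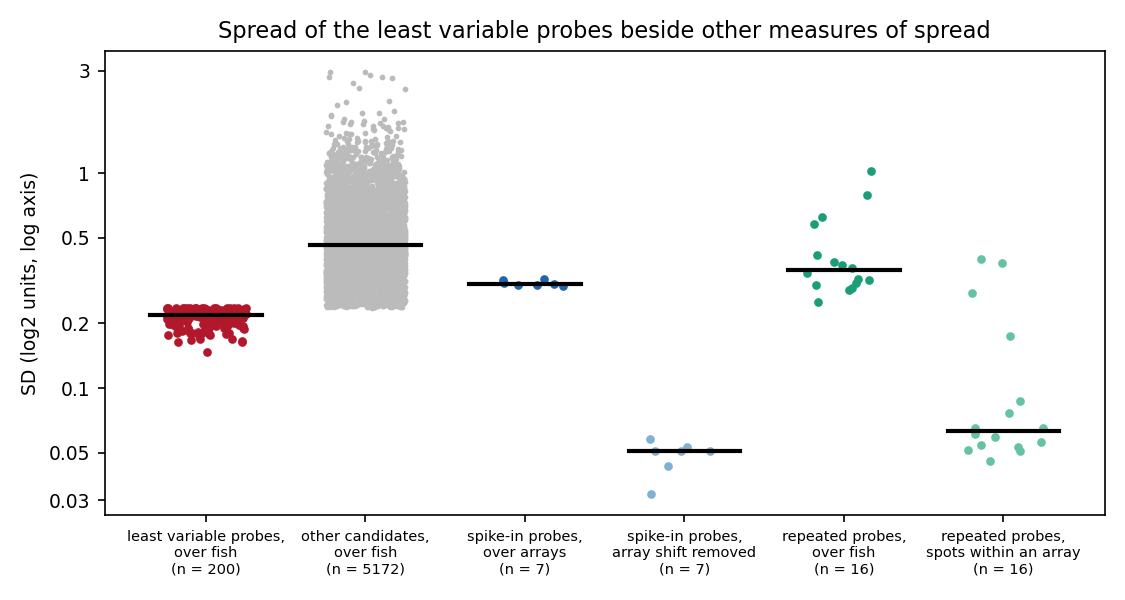
Each point is 1 probe and the black bar the median; the vertical axis is the SD in log2 units on a log axis. The least variable probes (median 0.219) lie below the other candidates (0.463), the spike-in probes on the same scale (0.305) and the repeated probes over fish (0.354), and above the spike-in probes with the array shift removed (0.051). The least variable probes have 1 spot each and keep their array shift here. Spike-in probes, and repeated probes over fish, are averages over spots, so these are unlike measures. The spots of a repeated probe within an array have a lower median (0.063) but range up to 0.398, beyond the members.

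Membership depended on the scale. Without any scaling the members had a median SD of 0.47, and the arrays' log2 75th percentile itself had an SD of 0.43, with a 4.44-fold distance between the brightest and the dimmest array. Of the 200 members, 149 stayed among the 200 least variable under quantile normalization and 109 with each array's median as the scale. After normexp background correction 50 stayed, with the spike-in probes as the scale 44 and without scaling 27. Normexp included an offset of 50 intensity units added to every signal, beside array 75th percentiles of processed signal of 43.6 to 194 units. The part of this offset in the normexp counts was not tested. Of the 10 members with the lowest SD, all 10 stayed under quantile normalization and with the array median, but 3 after normexp, 2 with the spike-in probes and 0 without scaling. All 10 also stayed whichever single fish was left out. Across the 38 lists that leave out 1 fish, 180 to 195 members stayed and 166 stayed in every list, with the fewest left when low PCB fish 33 was dropped.

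**Figure D5:**
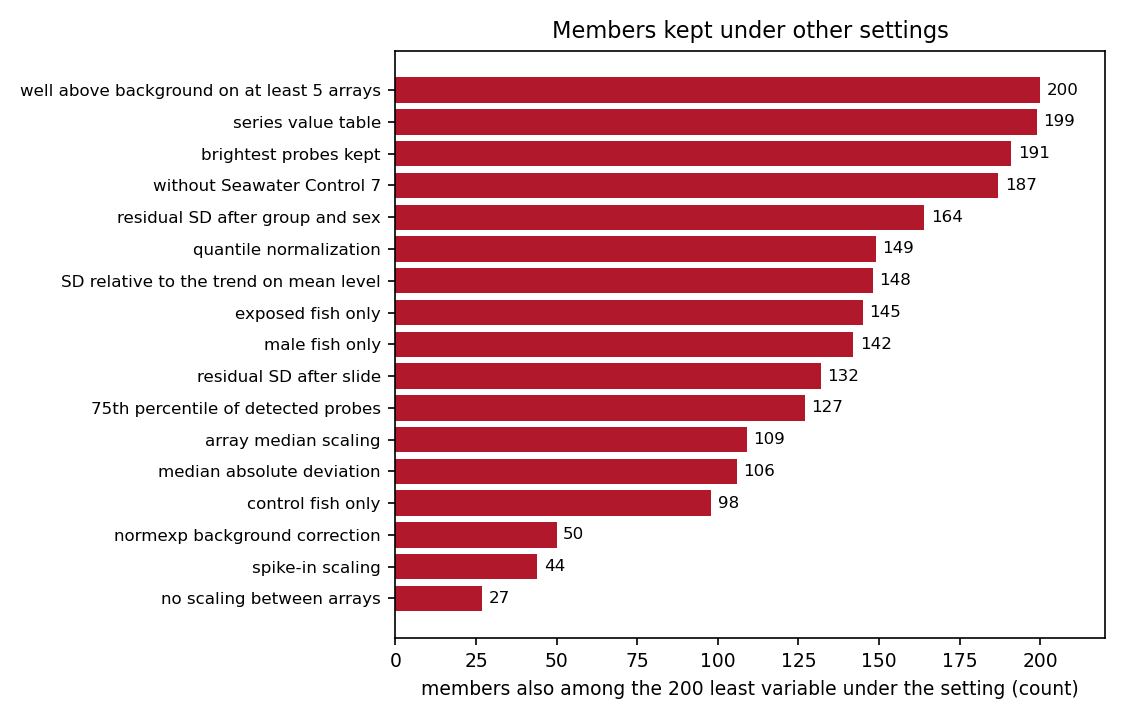
Bars give the number of the 200 members that were also among the 200 least variable probes under each other setting (count, axis from 0). The counts run between 200 when probes well above background on at least 5 arrays were eligible and 27 without scaling between arrays.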

How the data were processed

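Liver RNA of 38 fish was measured on 1-colour Agilent arrays, 1 fish per array. Feature Extraction 11.5.1.1 turned the scans into intensity values, per the file headers, and RNA was isolated with Trizol and labelled with Cy3, per the labels' protocols. The deposited intensity used here is the processed signal, on a linear scale and with background already subtracted. The deposited intensity table of the series differs from it by at most 0.497% and was an alternative. RNA quality was not analysed here.

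Groups came from sample titles; seawater control 7 carries the description of a vehicle control, but stayed with the group that its title and source name give. Numbers in fish names are the labels' own. Each fish is a separate animal.

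From the 15207 non-control spots of each array, log2 signal minus the log2 75th percentile was computed and averaged per probe (50 probes had 10 spots, well above background when at least 50% of them were). Differences were tested with limma 3.58.1 (R 4.3.3; lmFit, eBayes with an intensity trend) on 10492 probes well above background on at least 5 arrays, with Benjamini-Hochberg adjustment over all of them; slides were tested by an F test and also entered as a block, and differences within slides were taken between groups on the same slide. Lists and figures used Python 3.11.15. The fit and the choice of members were tested on simulated data. The number of arrays limits precision. Between 6113 and 10355 probes per array were well above background.

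The members, the named probes and the tests were chosen with earlier results of these data known. Named probes are the 10 members with the lowest SD, the 3 with the highest and the 3 with the lowest mean level, 3 on each side of the threshold, the 3 with the widest range of group means, and per comparison the member with the smallest limma p in each direction. Lists of reference genes, ribosomal, proteasome, splicing, translation and respiratory chain genes, xenobiotic response genes and liver, blood, pancreas, immune and ovary markers could not be applied, since probes carry contig numbers only. Other per-sample columns numbered 0. Alternatives changed the scaling, background correction, filter, measure of spread, fish used and terms of the fit.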

Additional observations from a re-analysis of the deposited data

Results flagged for a closer look

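Values were marked where the highest or lowest fish of a group stood apart, that is where its gap to the nearest other fish, as a share of the group's range, passed Dixon's 95% limit. A tested set was the fish of 1 group for 1 probe or array measure. Chance marks a value in about 1 in 20 sets, and 13 of 234 tested sets had a marked value. The causes were not tested.

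Of the array measures, the median distance of members from their means was 0.193 log2 units in low PBDE fish 12 (nearest other fish 0.143) and 0.222 in high PCB fish 32 (0.163). Oil fish 20 had 17 members more than 0.5 log2 units from their mean, and the next oil fish had 6.

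Of single members, HT_SCCWRP_6417 was at 4.46 in low PCB fish 33 (nearest other fish 4.07). HT_SCCWRP_17865 was at 0.57 in high PBDE fish 11 (0.88). HT_SCCWRP_1923 was at 5.35 in oil fish 49 (5.04). HT_SCCWRP_5604 was at 5.80 in seawater fish 24 (6.28). Seawater fish 46 stood low for HT_SCCWRP_4032, at 4.21 (4.58), and for HT_SCCWRP_2056, at 3.55 (3.80). HT_SCCWRP_1278 was at -0.81 in high PBDE fish 44 (-1.09) and at -1.69 in oil fish 20 (-1.01). Oil fish 20 also stood high for HT_SCCWRP_6641, at 1.30 (1.02). The candidate just outside the threshold, HT_SCCWRP_3326, was at 4.74 in low PCB fish 29 (5.43).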

How the results depend on the processing

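The choice of the 200 was more sensitive to scaling than to any single fish. Members that stayed numbered 109 with the array median as scale, 127 with the 75th percentile of probes well above background on all arrays, 27 without scaling, 50 after normexp, 44 with spike-in scaling (chosen after seeing the data), 106 by median absolute deviation, 132 by the residual SD after slide and 98 in control fish alone, and 180 to 195 when 1 fish was left out. The members' median SD was 0.262 with the array median, 0.471 without scaling, 0.377 after normexp and 0.374 with spike-ins, and that of all candidates was 0.621 without scaling, 0.414 after normexp and 0.550 with spike-ins, against 0.452. The highest member SD was 0.289 with quantile normalization, 0.316 with the array median, 0.297 with the 75th percentile of detected probes, 0.580 without scaling, 0.609 after normexp, 0.496 with spike-ins and 0.312 in control fish. Members passing the slide test numbered 1 with quantile normalization, 53 with the array median, 0 after normexp, 6 without an intensity trend, 0 in male fish, 7 without seawater control 7, and 2 to 14 when 1 fish was left out. In the group and sex comparisons 0 members passed under any alternative run, while the count over all probes ran between 0 and 5 for high PCB against oil, 0 and 10 for low PBDE, 0 and 5 for high PBDE, 0 and 26 for low PCB and 0 and 32 for high PCB against seawater, 0 and 17 for the 6 groups and 17 and 2201 for slides. The causes were not tested. Normexp used the median spot signal and an offset of 50 intensity units. No paired analysis was possible because fish numbers are unique to a fish and no number is shared between groups; slides hold several groups, and the fit with slide as a block is among the alternatives above, again with 0 members passing.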
